A study of Mus musculus with 27 samples.

Results

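ATF4 and the unfolded protein response (UPR) were examined through 10 genes in bulk RNA-seq of mouse liver cultures: Atf4, Ddit3, Trib3, Chac1, Asns, Psat1, Phgdh, Hspa5, Herpud1 and Xbp1. They were chosen by gene name from the 21850 rows of the deposited table, and all 10 were found and had enough counts to be tested in each of 16 comparisons. The 27 libraries used form 9 conditions of 3 libraries each, labelled C57BL/6. Hepatocyte organoids (HepOrgs), grown from primary hepatocytes in Matrigel, were at passage 2. They stayed in the expansion medium HM-Wnt, which holds EGF, FGF7, FGF10, HGF, R-spondin and Wnt3a conditioned media, gastrin, nicotinamide, the GSK3 inhibitor CHIR and the TGF-beta receptor inhibitor A83-01, or were moved to MM, a minimal medium with Wnt conditioned medium. Both media share the same base (with B27 and N-acetylcysteine) and a ROCK inhibitor. HepOrgs were collected after 1 week or 2 weeks. Periportal assembloids joined 10 HepOrgs with 1000 cholangiocytes per well and either 250 portal mesenchymal cells (homeostatic) or 2500 (fibrotic-like), and were kept in MM for 1 week or 2.5 weeks. Freshly isolated hepatocytes were the ninth condition. The genotype label is wild type, except for replicate 3 of the fresh hepatocytes, whose title says wild type and whose genotype label says MDR2-het, so comparisons with fresh hepatocytes are also given without it. The labels do not say whether replicates are separate animals or cultures, so p-values measure the spread between these libraries, which may be technical.

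ATF4 is a transcription factor made when the translation factor eIF2alpha is phosphorylated, by PERK during stress of the endoplasmic reticulum (ER), by GCN2 when amino acids are short, and by other kinases. Its known targets include genes that make and import amino acids and genes of a feedback and death branch. The UPR has further branches, in which IRE1 splices Xbp1 mRNA and ATF6 is cleaved, and both raise ER chaperones and degradation factors. Hepatocytes secrete much protein and have an extensive ER. ATF4 is regulated largely at translation and XBP1 by splicing, and neither protein levels nor splicing can be read from counts per gene.

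Short stretches upstream of the start sites show which of the genes carry the letters tied to these factors. In the 300 bases before the start of each gene's canonical transcript (GRCm39, GENCODE M39), 3 motifs were searched on both strands: TGATGNAA, a core of ATF4 composite sites, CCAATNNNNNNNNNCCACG, the ER stress element, and TGACGTG, the core of the UPR element. They do not overlap one another here. TGATGNAA was found in 3 of 10 genes, against 4.06% of 21757 protein-coding promoters of the same length. The ER stress element was found in 1 of 10 genes against 0.115%, and TGACGTG in 1 of 10 against 1.68%. The 30 bases around each match are shown along the gene's strand, with the match in capitals.
Ddit3, TGATGNAA on the opposite strand, starting at -199 from the start site, chr10:127126350-127126379: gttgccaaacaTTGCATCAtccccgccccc
Chac1, TGATGNAA on the opposite strand, starting at -159, chr2:119181519-119181548: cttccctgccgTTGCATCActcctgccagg
Herpud1, TGATGNAA on the opposite strand, starting at -92, chr8:95112934-95112963: accacggcgggTTGCATCAgcccgcacccc
Hspa5, ER stress element, starting at -67, chr2:34662032-34662061: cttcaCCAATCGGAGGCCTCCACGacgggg
Hspa5, TGACGTG, starting at -159, chr2:34661934-34661963: gggcgtagcaaTGACGTGagttgcggagga
All 4 genes lie on the plus strand. The Chac1 stretch and the ER stress element stretch of Hspa5 also lie in exons of other transcripts of the same gene, the Ddit3 stretch in exons of the genes Gm4189 and Gm66222, and the remaining stretches in no exon. These matches are a description, and no binding was measured here.

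The depth was 30289364 to 65348596 counts on genes per library (median 43727965). Levels are CPM, the reads of a gene relative to all gene reads of its library, scaled by TMM factors over the 27 libraries. For 80.8% of genes the length given in the table differed by no more than 5% from the distance between gene start and end, so levels are compared between genes only per kilobase of exons. A pair of assembloid libraries stood apart, and assembloid results are given with and without them. In replicate 2 of the homeostatic assembloids at 1 week, 6625 genes had 10 or more counts, against 11840 to 14162 in the other 26 libraries. Its 6 hepatocyte markers summed to 900.04 CPM, against 26653 and 14744 CPM in its group. Krt19, a cholangiocyte keratin, had 74339 counts there against 502 and 7657. In replicate 3 of the fibrotic-like assembloids at 1 week the hepatocyte markers summed to 1567 CPM, against 9996 and 14306 CPM. Its 6 mesenchyme markers summed to 273 CPM against 2252 and 5716 CPM, and Krt19 had 69531 counts against 23889 and 5118.

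**Figure D1:**
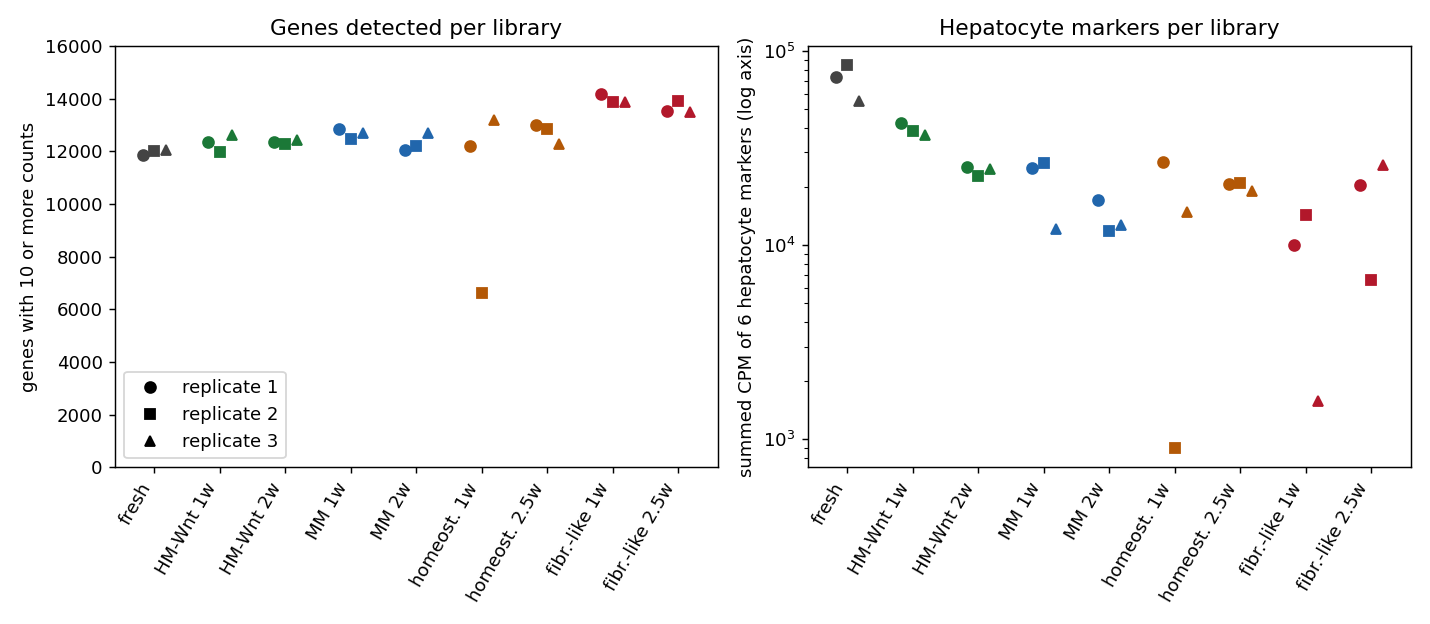
Genes with 10 or more counts (left) and summed CPM of 6 hepatocyte markers on a log axis (right) for each of the 27 libraries, with 1 point per library and the shape giving the replicate number. Homeostatic replicate 2 at 1 week is lowest in both panels, at 6625 genes and 900.04 CPM.

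Across conditions the genes differed widely in how far their means spread. Atf4 itself ranged 1.76-fold between its lowest and highest condition mean in CPM and Hspa5 1.96-fold, and on the deposited TPM, which is not TMM-scaled, 3.03-fold and 2.23-fold. In CPM, Trib3 ranged 13.1-fold, Chac1 20.5-fold, Psat1 238-fold and Phgdh 366-fold, the last of which rests on the homeostatic library that stood apart. The order of conditions was seldom resolved, because the libraries of neighbours in the order overlapped in all 8 neighbouring pairs for Ddit3, Trib3, Chac1, Asns and Hspa5. The mean of Atf4 in CPM was highest in HM-Wnt at 2 weeks, at 125, 127 and 122 CPM, but single libraries of HM-Wnt at 1 week (134 CPM) and MM at 1 week (129 CPM) were higher. On the deposited TPM its mean was highest in fibrotic-like assembloids at 1 week (435 TPM, against 414 TPM in HM-Wnt at 2 weeks). The mean of Herpud1 was highest in fresh hepatocytes on both scales. Per kilobase of exons, Hspa5, which encodes the chaperone BiP, had the highest mean level of the 10 genes in fresh hepatocytes (282 ± 77.9 CPM per kb, SD, n = 3), while Psat1 (0.170 ± 0.133) and Phgdh (0.406 ± 0.435) had the lowest.

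**Figure D2:**
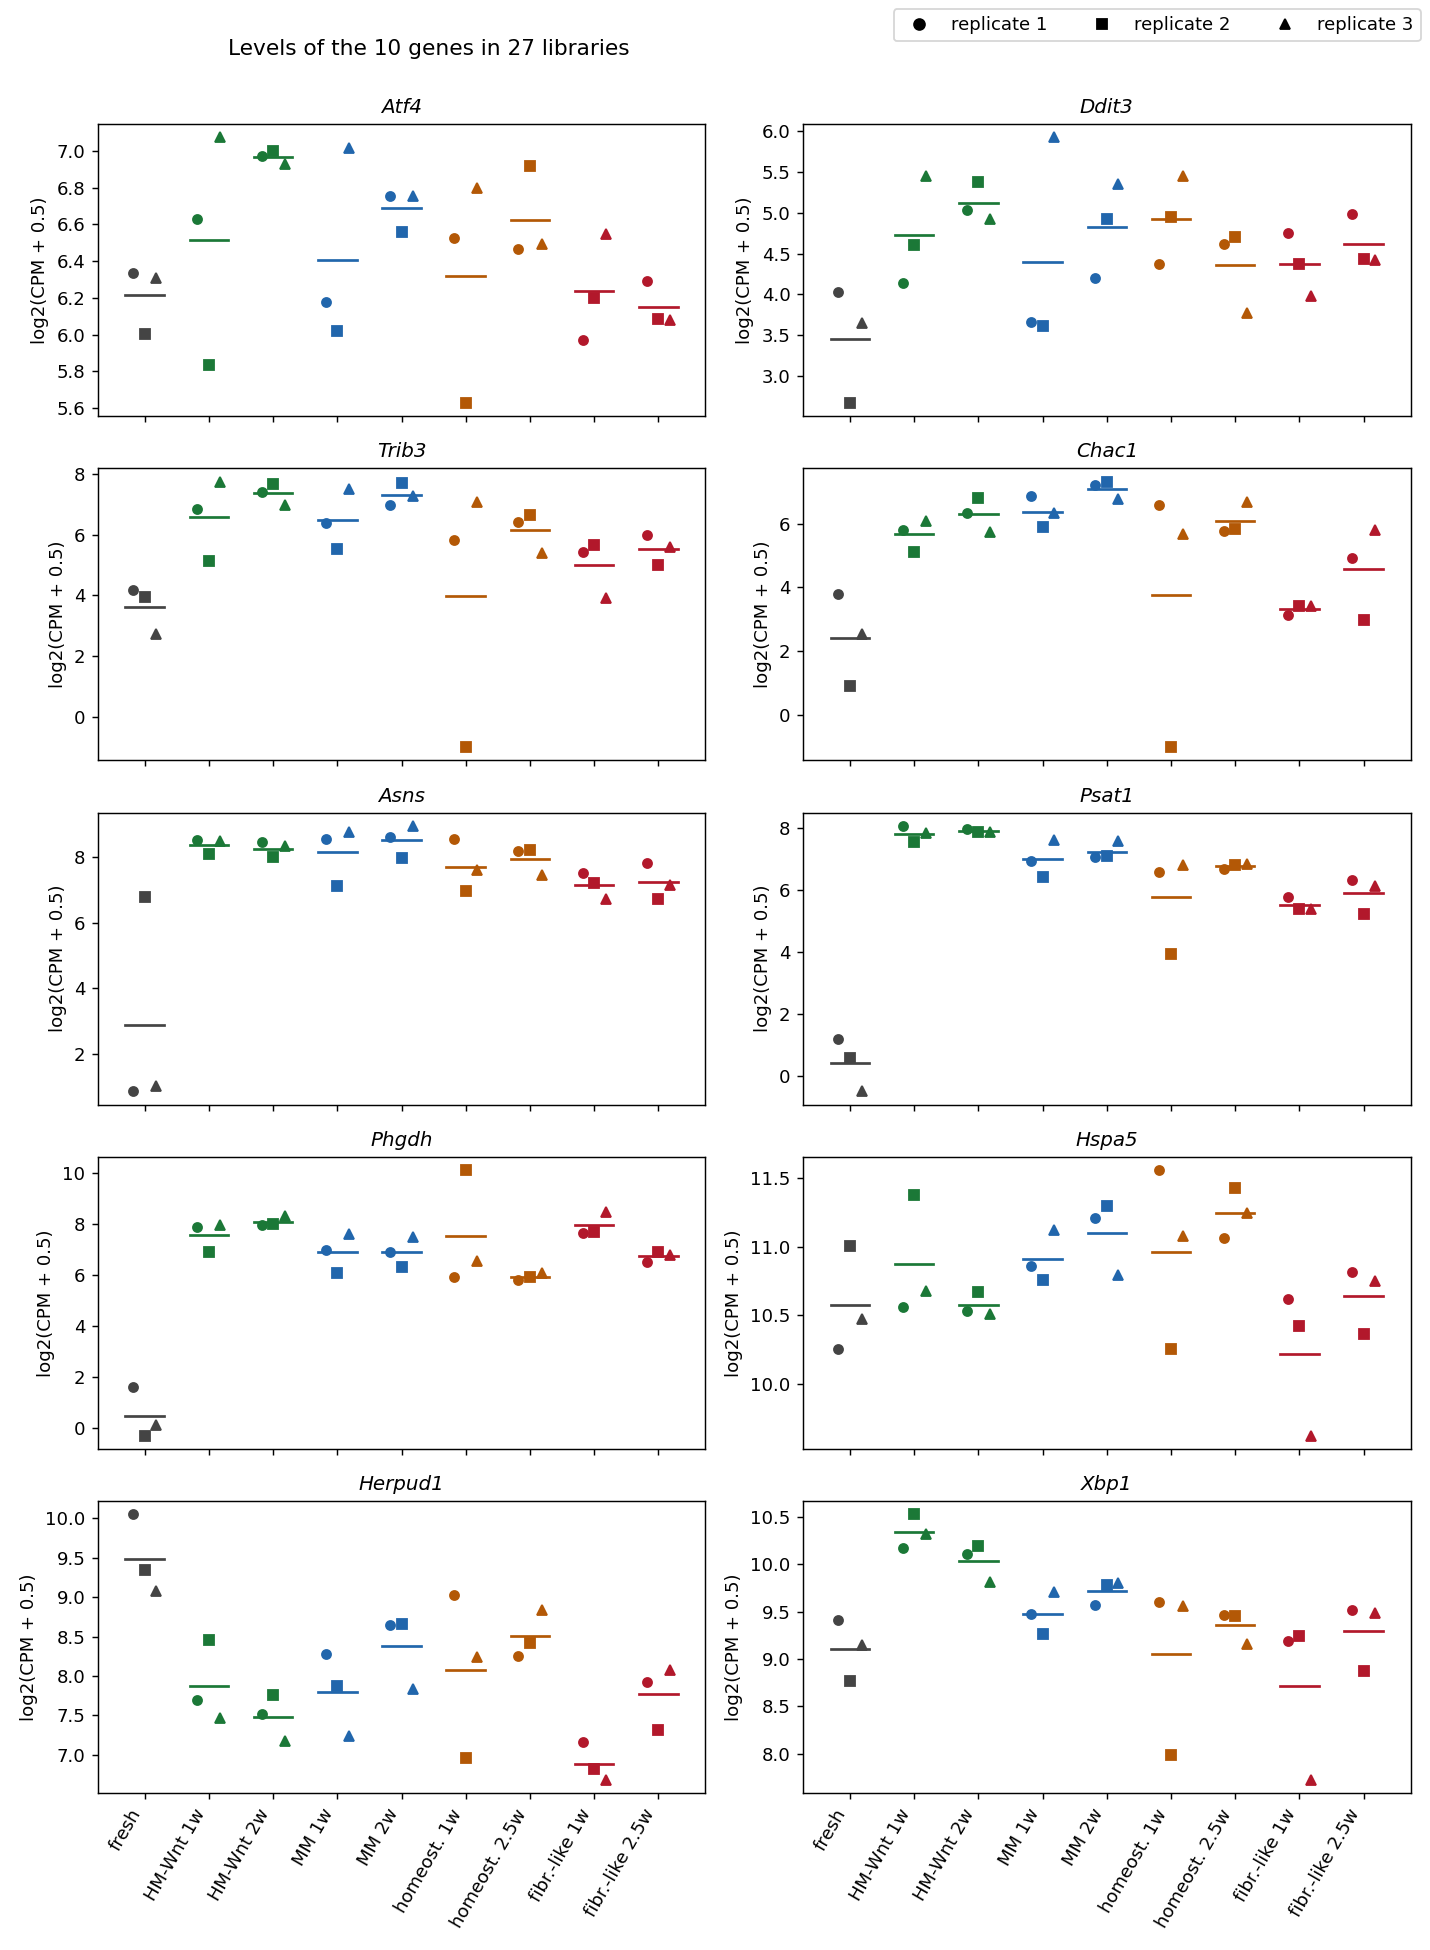
Levels of the 10 genes as log2(CPM + 0.5) in each library, with 1 panel per gene, the conditions along the horizontal axis, the shape giving the replicate number and the bar the mean of the 3 log2 values. Psat1 and Phgdh are near the floor in all 3 fresh hepatocyte libraries, and Trib3 and Chac1 have 0 counts in homeostatic replicate 2 at 1 week.

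The first comparison asked how the genes of cultured HepOrgs differ from those of hepatocytes straight from the liver. The serine synthesis enzymes Phgdh and Psat1 were at most 2.56 CPM in fresh hepatocytes and at least 67.7 CPM in every HepOrg library. The feedback gene Trib3 and the glutathione-degrading enzyme Chac1 were also higher in HepOrgs of both media and times. Herpud1, a factor of ER-associated degradation, was lower in all 4 HepOrg conditions. With edgeR in the reported design, Atf4 and Hspa5 did not pass the test in any of the 4 comparisons, and both passed in some under other settings given below.

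Phgdh, the first enzyme of serine synthesis from glycolysis, was at 2.56, 0.306 and 0.578 CPM in fresh hepatocytes. In HM-Wnt HepOrgs it was at 233, 119 and 251 CPM at 1 week and 249, 256 and 318 CPM at 2 weeks, and in MM at 126, 67.7 and 196 CPM and at 120.2, 78.8 and 180.3 CPM. Every HepOrg library was above every fresh one. The log2 fold change of Phgdh was 7.35 ± 0.73 (SE, adjusted p = 4.82e-06, edgeR quasi-likelihood test) for HM-Wnt at 1 week and 6.72 ± 0.71 (adjusted p = 1.17e-05) for MM at 2 weeks.

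Psat1, the next enzyme of the same pathway, was at 1.78, 1.01 and 0.213 CPM in fresh hepatocytes, which is 67, 23 and 7 counts. In HM-Wnt it was at 187 to 269 CPM over the 6 libraries and in MM at 86.2 to 197 CPM. Its groups did not overlap, and its log2 fold changes were 7.76 ± 0.58 and 7.84 ± 0.59 in HM-Wnt at 1 week and 2 weeks, and 7.03 ± 0.57 and 7.24 ± 0.57 in MM (SE, highest adjusted p = 1.16e-06).

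Asns, which makes asparagine, showed fresh replicate 2 apart from the others, at 110.1 CPM against 1.30 and 1.52 CPM. HepOrg libraries lay between 139 and 499 CPM, all above the fresh ones. Asns passed the test in HM-Wnt at both times and in MM at 2 weeks, with log2 fold changes of 3.12 ± 1.19, 3.02 ± 1.19 and 3.36 ± 1.21 (adjusted p = 0.0437, 0.0476 and 0.0403). In MM at 1 week it did not pass (adjusted p = 0.0527). Without fresh replicate 2 the 3 log2 fold changes were 7.85, 7.75 and 8.10. Without any other single library of the comparison, fresh or HepOrg, none of the 3 passed, and their highest adjusted p under an alternative was 0.144, 0.163 and 0.154.

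Trib3, a pseudokinase that ATF4 and CHOP raise and that feeds back on them, was at 17.4, 14.9 and 6.12 CPM in fresh hepatocytes. It was at 114, 34.3 and 215 CPM in HM-Wnt at 1 week, and at 126, 208 and 154 CPM in MM at 2 weeks. The lowest HepOrg library was thus above the highest fresh one. It was 9.22-fold and 12.7-fold higher in HM-Wnt at 1 week and 2 weeks, and 7.90-fold and 12.8-fold higher in MM (highest adjusted p = 0.00219). With all 27 libraries in the fit the call was lost in HM-Wnt at 1 week and in MM at both times (adjusted p = 0.0694, 0.111 and 0.0590).

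Chac1 was at 13.5, 1.40 and 5.27 CPM in fresh hepatocytes. Its HepOrg libraries lay between 34.3 CPM in HM-Wnt and 159 CPM in MM, all above the fresh ones. The fold change was 7.50 in HM-Wnt at 1 week and 20.5 in MM at 2 weeks (adjusted p = 0.00137 and 0.000161). With all 27 libraries in the fit Chac1 did not pass in HM-Wnt or MM at 1 week (adjusted p = 0.0927 and 0.0556). Ddit3, which encodes the death-branch factor CHOP, was between 5.86 and 15.9 CPM in the fresh libraries and at 32.4, 41.2 and 30.0 CPM in HM-Wnt at 2 weeks, where it was 2.97-fold higher (adjusted p = 0.0383). That call held without fresh replicate 1 and was lost without any 1 of the other 5 libraries (highest adjusted p = 0.119). In the other 3 comparisons the adjusted p of Ddit3 was 0.0777 to 0.0950. A second Ddit3 identifier in the table, annotated inside the first, had 0 counts in all 27 libraries. Of the exon bases of the first, 52.4% lie within other genes of the same strand. On either strand 100% do, with Mars1 and Mbd6 among those genes. How reads of overlapping genes were assigned is not given in the sources used here, so the level of Ddit3 is uncertain.

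Herpud1 was at 1058, 646 and 539.6 CPM in fresh hepatocytes. It was at 206, 351 and 176 CPM in HM-Wnt at 1 week and at 398, 404 and 228 CPM in MM at 2 weeks. In CPM every HepOrg library was below every fresh one, and on the deposited TPM the highest MM library at 2 weeks (286 TPM) was level with the lowest fresh one (285 TPM). It fell by 1.67 ± 0.37, 2.09 ± 0.37, 1.70 ± 0.37 and 1.10 ± 0.36 on the log2 scale (HM-Wnt 1 and 2 weeks, then MM, SE, highest adjusted p = 0.0267). The fall in MM at 2 weeks did not pass without fresh replicate 1 or without MM replicate 3. It also did not pass with all 27 libraries or with limma on log2(TPM + 1) or log2(TPM + 0.1). At its weakest the adjusted p was 0.144.

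Xbp1, the transcription factor of the IRE1 branch, was at 682, 436 and 566 CPM in fresh hepatocytes and at 1154, 1475 and 1277 CPM in HM-Wnt at 1 week. The fold change was 2.24 in HM-Wnt at 1 week, 1.83 in HM-Wnt at 2 weeks and 1.51 in MM at 2 weeks (adjusted p = 0.000331, 0.00224 and 0.0263). The last of these did not pass without fresh replicate 2 or 3 or MM replicate 2 or 3, with only the 2 groups in the fit, or with all 27 libraries (highest adjusted p = 0.358), and HM-Wnt at 2 weeks did not pass with all 27 libraries (adjusted p = 0.0813). In MM at 1 week it was at 614 to 835 CPM and did not pass (adjusted p = 0.181). All exon bases of Xbp1 and 87.1% of those of Hspa5 lie within another gene on the opposite strand (Ccdc117 and Rabepk), and whether counting used strand is not given in the sources used here.

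Atf4 was at 80.3, 63.6 and 78.9 CPM in fresh hepatocytes and at 125, 127 and 122 CPM in HM-Wnt at 2 weeks. Those groups did not overlap, but the difference of 0.71 ± 0.29 on the log2 scale did not pass (adjusted p = 0.0529). Under other settings it passed, with DESeq2 (adjusted p = 0.0421), with only the 2 groups in the fit (0.00591), with the replicate block (0.0199) and with limma on log2(TPM + 1), where the difference was 1.53 (0.00345). Atf4 in MM at 2 weeks passed with only the 2 groups (0.51, adjusted p = 0.0322) and with limma on log2(TPM + 1) (1.00, adjusted p = 0.0483). On the deposited TPM, Atf4 in fresh hepatocytes and in HM-Wnt at 2 weeks was at 144 ± 25.9 and 414 ± 29.1 TPM (SD, n = 3). Hspa5 was at 1223, 2051 and 1421 CPM in fresh hepatocytes and between 1458 and 2662 CPM in the HepOrgs, and the ranges overlapped (adjusted p = 0.121 to 0.816). Its log2 difference in HM-Wnt at 2 weeks was -0.08 under TMM scaling and 0.78 on log2(TPM + 1), so no direction is given. With limma on log2(TPM + 1) Hspa5 passed in all 4 comparisons (0.78, 0.78, 0.94 and 1.05, highest adjusted p = 0.00911), and in none with edgeR or DESeq2 where all replicates were kept.

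Counted over the 10 genes, HM-Wnt at 1 week gave 6 higher and 1 lower, against 24.9% and 24.8% of the 13405 genes tested that were called higher and lower. HM-Wnt at 2 weeks gave 7 higher and 1 lower (background 26.1% and 25.7%), MM at 1 week 4 higher and 1 lower (21.5% and 21.3%) and MM at 2 weeks 6 higher and 1 lower (19.7% and 20%). The median log2 fold change of the 10 genes was 2.09, 2.30, 2.13 and 2.37, and that of all genes tested was 0.02, 0.03, 0.00400 and -0.01. Without fresh replicate 3 the counts called were 6, 6, 5 and 5. The share of all genes called in those fits is not available here, so these counts are not compared with a background. The 10 genes were chosen with earlier results of these data known, so their counts beside these shares are a description and not a test. The 4 comparisons share the same fresh libraries. On log2(TPM + 1) the median of all genes was higher than under TMM scaling by 0.37 to 0.64, and 76.5% to 84.5% of called genes were higher, against 49.6% to 50.4% under TMM. No called member changed direction. The cell content also differed, since hepatocyte markers summed to 55124 to 84540 CPM in fresh hepatocytes and 11796 to 42434 CPM in HepOrgs, and 6 cholangiocyte markers to 11.6 to 143 CPM and 3551 to 15479 CPM (Krt19, Krt7 and Epcam were at 0 in fresh replicate 1). Endothelial markers summed to 37.8 to 179 CPM in fresh hepatocytes and at most 1.90 CPM in HepOrgs, and immune markers to 39.5 to 390 CPM and 6.27 to 747 CPM. Immediate early genes summed to 6520 CPM in fresh replicate 1 and 1404 and 1542 CPM in the others. The part of these in the differences was not tested. In bulk libraries, fewer cells of a type and less RNA per cell cannot be told apart.

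**Figure D3:**
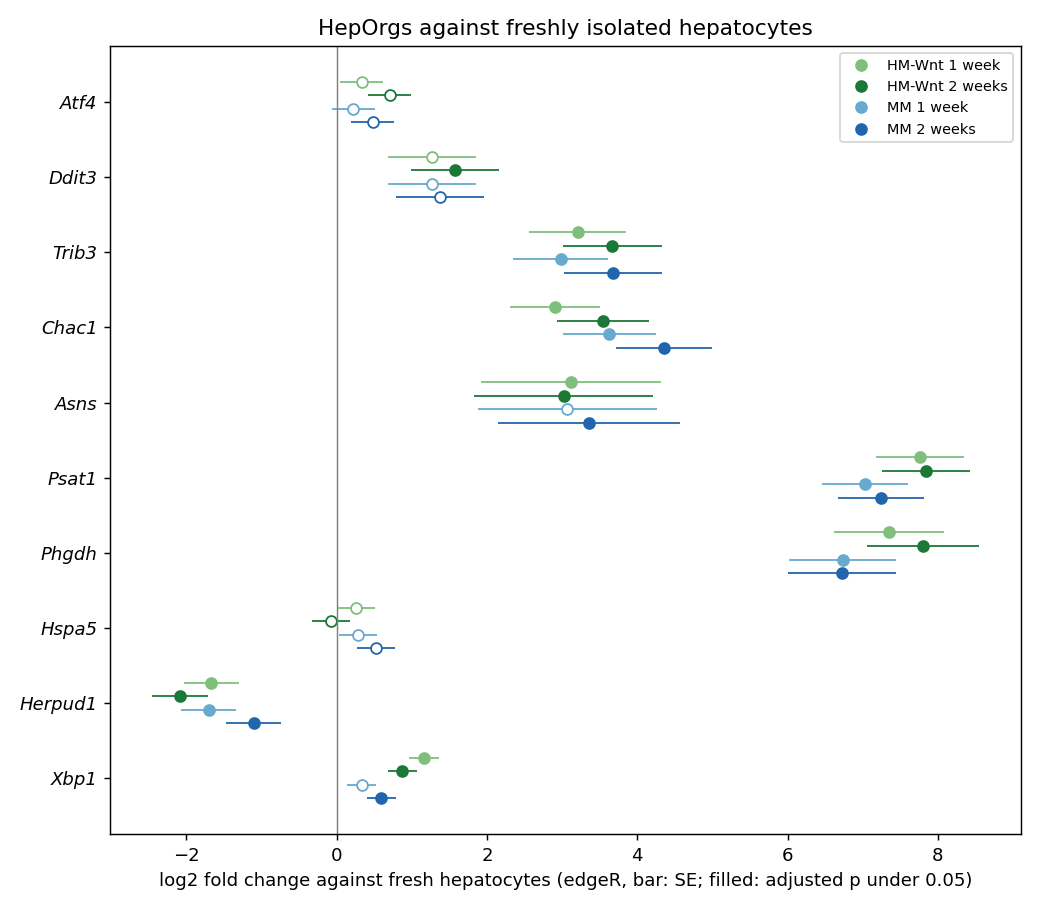
Log2 fold change of each gene in the 4 HepOrg conditions against fresh hepatocytes (edgeR, bars are SE), with filled points for an adjusted p under 0.05. Psat1 and Phgdh lie between 6.72 and 7.84, Herpud1 lies below 0 in all 4 conditions, and Atf4 and Hspa5 have open points throughout.

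A wider set of 78 pathway genes in 9 groups was counted in the same 4 comparisons, beside the background shares given above. These lists too were chosen with earlier results of these data known, so their counts are a description. Of 7 amino acid transporters, 5 were higher in each of the 4 comparisons and none was lower. Of 9 amino acid and one-carbon enzymes, 6 were higher in each and 2 or 3 lower. Slc7a11, the cystine importer, had 4, 0 and 1 counts in fresh hepatocytes and 1500 to 10795 counts in the HepOrg libraries. Pck2, the mitochondrial PEP carboxykinase, rose from 3.28, 4.90 and 2.47 CPM to between 30.8 and 119 CPM (log2 fold change 4.33 to 4.84). The stanniocalcin gene Stc2 had 0 counts in every fresh library and 31 to 433 in the HepOrg libraries, and Nupr1, a stress-induced cofactor, was at 0.304 to 1.01 CPM in fresh hepatocytes and 21.1 to 83.4 CPM in HepOrgs. Of 13 genes of the aminoacyl-tRNA synthetase group, 4, 8, 7 and 8 were higher and 1, 1, 0 and 0 lower, with Gars1 (glycyl-tRNA synthetase) at a log2 fold change of 1.38 to 1.74.

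The counts in the ER groups depended on the scale, so no direction is given for those groups. With edgeR under TMM scaling, of 16 ER chaperones and folding enzymes 6 were lower and 1 higher in HM-Wnt at each time, against 2 and 2 in MM at 1 week and 0 lower and 2 higher in MM at 2 weeks. With limma on log2(TPM + 1), 5, 7, 5 and 10 of the 16 were higher and 2, 1, 0 and 0 lower (HM-Wnt at 1 and 2 weeks, then MM). On that scale 43.1%, 60.3%, 46.5% and 39.5% of all genes were called higher and 13.2%, 11.1%, 9.42% and 9.28% lower. The higher one in HM-Wnt under TMM scaling was the oxidase gene Ero1a, which rose by 4.47 on the log2 scale at 1 week, while its paralog Ero1b fell by 1.51 (adjusted p = 3.49e-05 and 2.71e-05). Of 10 genes of ER-associated degradation, 6 were lower in HM-Wnt at each time and 4 in MM at each time, with 0, 1, 1 and 1 higher (Derl1 in MM at 2 weeks, log2 fold change 1.05, adjusted p = 0.00664). With limma on log2(TPM + 1) 2, 3, 4 and 3 of these were higher and 3, 2, 2 and 0 lower. Of 5 ER sensors and proteases, 1 was higher in each comparison (Mbtps2, a protease that cleaves ATF6). Of 7 genes of eIF2alpha, its kinases and its phosphatase subunits, Eif2ak2, which encodes the kinase PKR, was the only one higher in each, and 2, 1, 0 and 1 were lower. Of 7 ATF4 partner and feedback genes 4, 5, 3 and 4 were higher, and of 4 secreted factors 3, 3, 3 and 2, with 1 lower of each group in MM at 2 weeks. The medians of the chaperone group were -0.44, -0.68, -0.26 and 0.06 under TMM scaling, beside the medians of all genes given above, and 0.16, 0.23, 0.38 and 0.59 on log2(TPM + 1), beside 0.40, 0.68, 0.47 and 0.40 for all genes.

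The next comparison asked what the change of medium did to HepOrgs. At 1 week Xbp1 alone passed the test and was lower in MM. At 2 weeks none of the 10 genes passed in the design without pairing, while Herpud1 was higher and Phgdh lower in MM once libraries with the same replicate number were paired. The numbers pair the HepOrg libraries in the data, as processing describes, so paired values are given beside the others.

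Xbp1 was at 709, 614 and 835 CPM in MM and 1154, 1475 and 1277 CPM in HM-Wnt at 1 week, without overlap. It fell by 0.84 ± 0.17 on the log2 scale (adjusted p = 0.0319, paired 0.0175). The call did not hold with only the 2 groups in the fit, with all 27 libraries, on log2 TPM, or without HM-Wnt replicate 2 or 3 or MM replicate 1 or 2. Psat1 was at 122, 86.2 and 197 CPM in MM and 269, 187 and 226 CPM in HM-Wnt, and passed only with pairing (1.73-fold lower, adjusted p = 0.0476) or without MM replicate 3. So 1 member was called at 1 week, against 2.98% of 12989 genes, and with pairing 2, against 9.48%.

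At 2 weeks Herpud1 was at 398, 404 and 228 CPM in MM and 183, 215 and 144 CPM in HM-Wnt. Each MM library was above each HM-Wnt library (1.99-fold, adjusted p = 0.0806, and 1.94-fold with pairing, adjusted p = 0.00819). Without MM replicate 3 the fold was 2.36 (adjusted p = 0.0392). Phgdh was at 120.2, 78.8 and 180.3 CPM in MM and 249, 256 and 318 CPM in HM-Wnt, again without overlap (2.09-fold lower, adjusted p = 0.103, and 2.24-fold with pairing, adjusted p = 0.00538). Hspa5 was at 2368, 2509.5 and 1776 CPM in MM and 1482, 1629.8 and 1458 CPM in HM-Wnt (1.52-fold, adjusted p = 0.113, and 1.52-fold with pairing, adjusted p = 0.0732). In a fit of only the 2 groups Phgdh and Psat1 were lower in MM (2.08-fold and 1.49-fold, adjusted p = 0.0497 and 0.0494). The share of all genes called in that fit is not available here, so these calls are not compared with a background. With edgeR 0 of 10 members were called, 5 had an unadjusted p under 0.05, and 11.5% of all genes were called. With pairing 2 were called (19.6% of genes), with DESeq2 3 (Phgdh, Hspa5 and Herpud1, 19.3% of genes) and with limma on log2 TPM 0. Of all genes called by edgeR, 59.7% were higher in MM at 2 weeks, and 31.1% on log2(TPM + 1), while at 1 week the shares were 59.2% and 77.2%. Phgdh, Hspa5, Herpud1 and Psat1 kept their signs at 2 weeks on that scale.

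Among the wider groups at 2 weeks, 7 of 16 ER chaperones and folding enzymes were higher in MM and 1 was lower, while 11.5% of all genes were called in either direction. The lower one was Ero1a, which fell by 2.09 on the log2 scale (adjusted p = 0.0325), and the higher ones included Manf, an ER-resident secreted factor, at 336, 273 and 181 CPM against 121, 116 and 112 CPM (log2 fold change 1.24 ± 0.25, adjusted p = 0.0109). With pairing 8 were higher and 1 lower, with Manf at 1.21 (adjusted p = 0.00482) and Ero1a at -2.34 (adjusted p = 0.00707). Over all genes 19.6% were called with pairing. On log2(TPM + 1) 5 were higher and 1 lower, while limma called 1242 of all genes in either direction, and 31.1% of those called were higher in MM. The number of genes tested in that fit is not available here, so no share is given. The median of the group was 0.72, beside -0.02 for all genes. Derl3, a factor of ER-associated degradation, had 0, 0 and 4 counts in HM-Wnt and 383, 305 and 188 in MM. It also passed at 1 week (log2 fold change 5.27, adjusted p = 0.00996), and with pairing at both times (adjusted p = 0.00395 and 0.000242). Against fresh hepatocytes Derl3 was lower in HM-Wnt at 1 week and 2 weeks (-5.24 and -6.20) and did not pass in MM (0.04 and 1.43). The amino acid transporter genes Slc1a5 and Slc7a5 were lower in MM (log2 fold changes -2.14 and -1.41, adjusted p = 0.0141 and 0.00601, and with pairing -2.20 and -1.38, adjusted p = 0.00179 and 0.00389). At 1 week 0 of the 16 chaperone genes passed (2.98% of all genes), and 1 with pairing (9.48% of all genes).

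**Figure D4:**
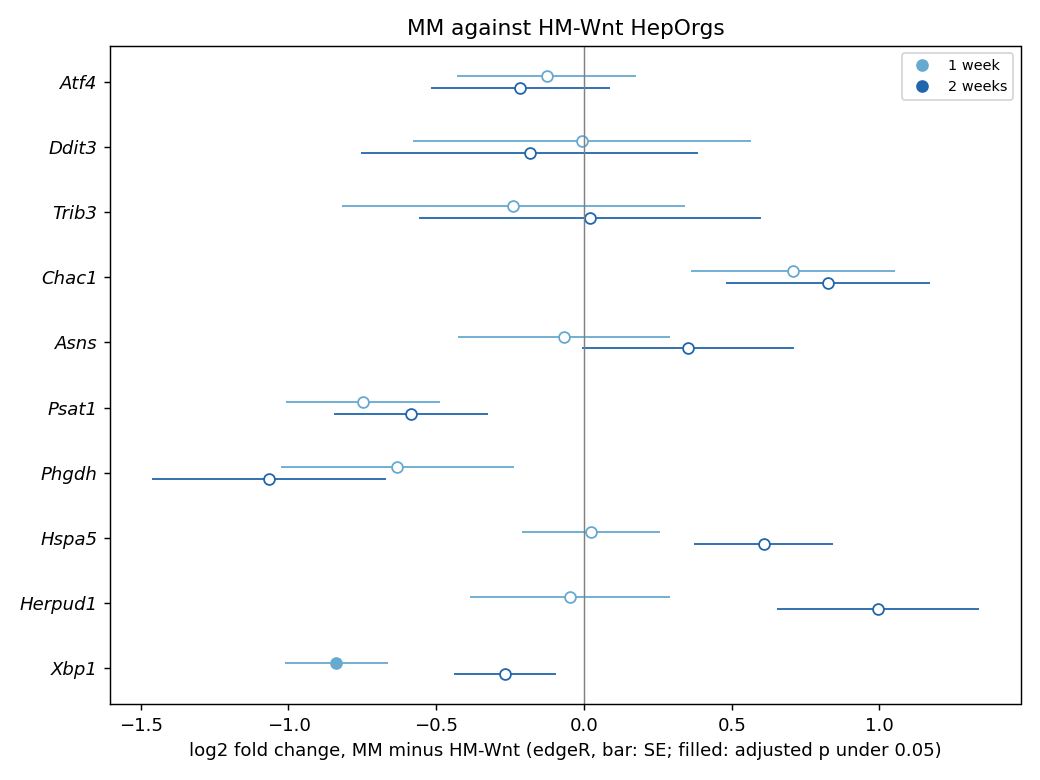
Log2 fold change of each gene in MM against HM-Wnt HepOrgs at 1 week and 2 weeks (edgeR without pairing, bars are SE), with filled points for an adjusted p under 0.05. Only Xbp1 at 1 week is filled, at -0.84.

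Time in culture was compared within each medium. Between 2 weeks and 1 week, 0 of the 10 genes passed in HM-Wnt (0% of all genes) and 0 in MM (0.0154% of all genes), and the change of the medium difference with time gave 0 (0% of all genes). With pairing 0 members passed in each, against 0%, 0.0231% and 0% of all genes, and the lowest adjusted p of a member was 0.274, 0.184 and 0.201. Members with an unadjusted p under 0.05 numbered 0, 0 and 1, and DESeq2 and limma also called 0 members in each. Over all genes those counts were 1134, 1337 and 951 unadjusted, 22, 308 and 46 with DESeq2, and 0, 4 and 0 with limma. In MM the libraries of the 2 times overlapped for each of the 10 genes. Replicates at 1 week were spread, with Ddit3 at 12.1, 11.8 and 60.4 CPM and Trib3 at 83.6, 45.7 and 181 CPM in MM, and Trib3 at 114, 34.3 and 215 CPM in HM-Wnt.

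In the assembloids the comparison was between the homeostatic and the fibrotic-like number of mesenchymal cells. With all 12 libraries, edgeR called 0 of the 10 genes at 1 week and 0 at 2.5 weeks, and no gene of the 14253 tested (0% each). Unadjusted p-values under 0.05 numbered 1 and 0 among members and 2012 and 944 among all genes. DESeq2 and limma called 0 members, and DESeq2 called 867 and 273 of all genes and limma 708 and 0. On log2(TPM + 1) the median of all genes was higher by 0.67 and 0.38, and at 1 week the sign of 8 of the 10 genes (all but Hspa5 and Herpud1) turned, so no direction is given with all 12 libraries. The 1-week result turned on homeostatic replicate 2. Without it, edgeR called Phgdh higher and Chac1, Psat1 and Herpud1 lower in fibrotic-like assembloids, 4 of 10 against 8.01% of all genes.

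Chac1 at 1 week was at 95.2, 0 and 50.5 CPM in homeostatic and 8.28, 10.2 and 10.2 CPM in fibrotic-like assembloids. The 0 belongs to homeostatic replicate 2, and without that library Chac1 was 7.94-fold lower in fibrotic-like assembloids (adjusted p = 0.0442). Herpud1 was at 521, 124 and 302 CPM against 143, 112 and 102 CPM, and 3.61-fold lower without that library (adjusted p = 0.0408). Psat1 was at 95.5, 15.0 and 111 CPM against 53.9, 41.8 and 41.1 CPM, and 2.36-fold lower without that library (adjusted p = 0.0442). On the deposited TPM the Psat1 ranges overlapped with and without homeostatic replicate 2, so no direction is given for Psat1 on that scale. With it, homeostatic assembloids were at 3.99 to 21.1 TPM, and fibrotic-like ones reached 16.3 TPM.

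Phgdh at 1 week was at 59.5, 1106 and 93.0 CPM in homeostatic and 202, 208 and 351 CPM in fibrotic-like assembloids. The library at 1106 CPM is again homeostatic replicate 2. Without it Phgdh was 3.21-fold higher in fibrotic-like assembloids (adjusted p = 0.0408). In CPM Phgdh and Psat1, of the same pathway, thus had opposite signs there, while on the deposited TPM the groups overlapped for Psat1. When fibrotic-like replicate 3 was also left out, a choice made after the values were seen, Phgdh was the only member called (2.59-fold, adjusted p = 0.0390, 1.87% of all genes), with 2 libraries in each group. The mesenchyme markers summed to 2252, 5716 and 273 CPM in fibrotic-like and 103, 831 and 262 CPM in homeostatic assembloids at 1 week, and the part of cell content in these differences was not tested.

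At 2.5 weeks no library stood apart by the same measure, although the hepatocyte markers summed to 6595 CPM in fibrotic-like replicate 2 against 20449 and 25729 CPM in its group. Without both libraries that stood apart at 1 week, 0 members passed at 2.5 weeks, against 3.19% of all genes. Phgdh was at 90.4, 119 and 110.3 CPM in fibrotic-like and 55.3, 60.4 and 66.5 CPM in homeostatic assembloids, and passed only in a fit of those 2 groups (1.76-fold higher, adjusted p = 0.0413, 5.53% of all genes). Hspa5 was at 1799.8, 1314 and 1719 CPM against 2140.4, 2753 and 2429.9 CPM, and Herpud1 at 242, 159 and 269.9 CPM against 306, 340.3 and 456 CPM. Neither passed, and on the deposited TPM the ranges of the groups overlapped for both (Hspa5 at 2371 to 3068 against 2462 to 3215 TPM, Herpud1 at 204 to 232 against 225 to 288 TPM), so no direction is given. Psat1 was at 79.8, 37.4 and 69.1 CPM against 102, 112 and 113 CPM, and did not pass.

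Between 2.5 weeks and 1 week 0 members passed in homeostatic (0% of genes) or fibrotic-like assembloids (0%), and 0 for the change of the ratio's difference with time (0%). Without both libraries that stood apart, 0 members and 0% of all genes passed in each of the 3. Unadjusted p-values under 0.05 numbered 1, 0 and 0 among members and 936, 122 and 278 among all genes. DESeq2 and limma called 0 members in each, and of all genes DESeq2 called 15, 0 and 0 and limma 0 in each.

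The last comparison set assembloids beside HepOrgs alone, all at 1 week in MM. No member was called for homeostatic (0% of 13733 genes) or fibrotic-like assembloids (0%), with 0 and 1 unadjusted p-values under 0.05 and 0 by DESeq2 and limma. Over all genes 976 and 1512 had an unadjusted p under 0.05, DESeq2 called 261 and 730, and limma 0 and 194. For homeostatic assembloids, 0 members and 0% of genes were called also without both libraries that stood apart. Chac1 was at 116, 58.6 and 80.7 CPM in HepOrgs alone and 8.28, 10.2 and 10.2 CPM in fibrotic-like assembloids, and Psat1 at 122, 86.2 and 197 CPM and 53.9, 41.8 and 41.1 CPM. For Chac1 each fibrotic-like library was below each HepOrg library on CPM and on the deposited TPM (28.8 to 54.9 against 122 to 226 TPM), while for Psat1 this held on CPM and the ranges overlapped on TPM (up to 16.3 TPM against 13.3 to 37.3 TPM). On log2(TPM + 1) the median of all genes was higher by 0.64 and 90.7% of called genes were higher. In a fit of those 2 groups both were called (9.06-fold and 2.99-fold lower, adjusted p = 0.00512 and 0.0186, 25.5% of all genes), and likewise without both libraries that stood apart (9.62-fold and 2.94-fold, adjusted p = 0.0110 and 0.0251, 22.2% of all genes). Fibrotic-like assembloids hold cholangiocytes and mesenchyme besides hepatocytes, and lower expression in hepatocytes cannot be told apart from a smaller share of them.

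Over the 9 condition means of log2 CPM, a description with no test over points that share libraries between genes, Asns and Psat1 were most alike (Pearson r = 0.983), followed by Trib3 and Chac1 (r = 0.939). Phgdh and Herpud1 were the least alike (r = -0.861). Among 3623 other named genes with a mean log2 CPM of at least 5, those most like Hspa5 were Samm50 (r = 0.962), the ER chaperone gene Dnajb9 (r = 0.962) and Akr1e1 (r = 0.947). Those most like Trib3 were Cyp39a1 (r = 0.960), Slc44a3 (r = 0.958) and A2ml1 (r = 0.951), and those most like Atf4 were Map7d1, Get4 and Rell1 (r = 0.910, 0.903 and 0.902).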

How the data were processed

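The authors made SMARTseq2 libraries, mapped the read pairs with STAR (build GRCm39) and counted them per gene by featureCounts. The deposited counts are whole reads per gene, not normalised. The deposited TPM use a gene length that mostly follows the distance from gene start to end, and were used for alternatives and where named. Of 37 libraries in the table, 27 were mapped by their titles and library names and the other 10 were not used.

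Counts were tested in R 4.3.3 with edgeR 4.0.16 (TMM, filterByExpr with a minimum count of 10, quasi-likelihood test, Benjamini-Hochberg over all genes, threshold 0.05) in fits of 15, 12, 12 and 9 libraries. Alternatives used DESeq2 1.42.0, limma 3.58.1 on log2(TPM + 1) and log2(TPM + 0.1) (at least 1 TPM in 3 libraries), RLE factors, no filter, all 27 libraries, only the 2 groups compared, the replicate number as a block, and each replicate left out. The 10 genes and the lists were chosen with earlier results of these data known. All 10 are counted in each comparison, and values are given for those past the threshold there and for some others. In the wider lists up to 2 called genes with the largest fold are described. A library stood apart where its hepatocyte markers summed to less than the next lowest library of its condition divided by 5, a rule set after the values were seen.

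Replicate pairing was checked by correlating deviations from condition means. In the HepOrg fit 18 of 18 pairs with the same number had a correlation over 0.1 (0.217 to 0.678), against 6 of 36 with different numbers. What the numbers stand for is not given in the sources used here. In the fits with fresh hepatocytes, of assembloids, and of both culture types, 19 of 30, 9 of 18 and 4 of 9 pairs with the same number did. With different numbers 7 of 60, 14 of 36 and 10 of 18 did. Each test was first tested on simulated data with 200 genes changed by 2 on the log2 scale. False calls per fit numbered 28 to 38 with DESeq2, 5 to 9 with edgeR, 4 to 14 with its replicate block and 8 to 13 with limma. Of the changed genes, edgeR recovered 91.5% to 98%, DESeq2 91% to 97.5% and limma 77.5% to 84%. These counts and shares describe the simulated data only, and whether they hold at the spread of the real libraries was not tested. Across the 10 genes, the median SD relative to the mean ran from 14.6% in HM-Wnt at 2 weeks to 59.7% in homeostatic assembloids at 1 week.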

Additional observations from a re-analysis of the deposited data

How the results depend on the processing

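The 28 calls of a member in a comparison kept their direction under every alternative run. Over all calls and alternatives, 341 of 392 values stayed past the threshold, 51 did not and 0 reversed. Members called differed by more than 1.5 times from the reported count in these cases, and the cause was not tested. Where no share of all genes called is given above for a fit, it is not available here. Counts from such fits are not compared with a background. MM at 1 week against fresh hepatocytes gave 8 on log2(TPM + 1) and 8 on log2(TPM + 0.1) against 5. MM at 2 weeks against fresh gave 4 with all 27 libraries against 7, and 4 to 7 with a replicate left out. MM against HM-Wnt at 1 week (1 called) gave 0 on both log2 TPM scales, 0 with all 27 libraries, 0 with only the 2 groups, 2 with the replicate block, and 0 to 2 with a replicate left out. At 2 weeks (0 called) it gave 3 with DESeq2, 2 with the replicate block, 2 with only the 2 groups, and 0 to 1 with a replicate left out. Fibrotic-like against homeostatic assembloids (0 called) gave 0 to 4 with a replicate left out (4 without homeostatic replicate 2) and 1 without both libraries that stood apart at 1 week, and 1 with only the 2 groups at 2.5 weeks. Fibrotic-like assembloids against HepOrgs (0 called) gave 2 with only the 2 groups and 2 without both libraries. In the fit with fresh hepatocytes, 19 of 30 pairs with the same number had a correlation over 0.1, against 7 of 60 with different numbers. There the replicate block lost Asns in 3 comparisons (adjusted p = 0.0571 to 0.0637). It added Atf4 in HM-Wnt at 2 weeks (log2 fold change 0.73, adjusted p = 0.0199) and changed no other member's call there.

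Counts in the wider lists moved by more than 1.5 times most often with all 27 libraries in the fit (48 of 240 lower and 15 higher). Levels relative to the mean of the conditions moved by more than 1 SD for 19 of 90 on plain CPM and 28 of 90 on the deposited TPM. With 3 libraries per condition, and 2 where a library was left out, modest differences may go undetected.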
